A study of Mus musculus with 27 samples.

Results

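The 10 genes described here are Per1, Per2, Per3, Dbp, Nr1d1, Nr1d2, Tef, Ciart, Arntl and Bhlhe41, genes of the circadian clock and of its direct output. They were chosen by symbol from the 31053 genes in the count files, and 9 of the 10 had at least 1 UMI (unique molecular identifier, a captured RNA molecule). Single-nucleus RNA-seq was performed on hippocampi of 27 mice, 1 library per mouse, aged 8 to 10 months. Mice without the tau transgene were labelled Cgas+/+ (5 mice), Cgas+/- (2 mice) and Cgas-/- (2 mice), and mice with the P301S human tau transgene, driven by the mouse Prnp promoter, were labelled P301S Cgas+/+, P301S Cgas+/- and P301S Cgas-/- (6 mice each). Cgas encodes a sensor of cytosolic DNA, and Cgas-/- mice have no functional copy of it. All mice were kept on a 12-h light and 12-h dark cycle and had been through behavioural tests before tissue was taken. The time of day at which each hippocampus was taken is not given in the sources used here, so a difference between groups and a difference in collection time cannot be told apart.

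In mammalian cells the clock is a delayed feedback loop. ARNTL (BMAL1) pairs with CLOCK or NPAS2 and activates genes through E-boxes, among them the Per genes, Dbp, Nr1d1, Nr1d2, Ciart and Bhlhe41. PER proteins with CRY proteins, CIART and BHLHE41 then oppose that activator, while NR1D1 and NR1D2 (REV-ERB alpha and beta) repress Arntl through ROR elements, so that Arntl transcripts run out of phase with the E-box genes in most tissues. DBP and TEF are leucine zipper factors that act on D-boxes. The hippocampus holds such a clock in neurons and glia, set by the suprachiasmatic nucleus, feeding, light and glucocorticoids.

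To show which of these elements lie next to the measured genes, windows of 250 bases before and 50 bases after each annotated start were searched on both strands for the E-box CACGTG, the variant CACGTT, the D-box TTATGTAA and the ROR elements TAGGTCA and TGGGTCA. RefSeq entries (GRCm38.p6) were found for 9 of the 10 genes, in 12 windows, and Per2 had no entry. The CACGTG E-box was present in the windows of 4 genes (Ciart, Bhlhe41, Per1 and Tef) and in 7.15% of 32851 promoter windows of the genome. Ciart had 3 copies, and Arntl had the only ROR element (6.45% of all windows have one). Per3 had the D-box (0.938% of all windows) and Nr1d1 had the CACGTT variant (4.68%). The windows of Dbp and Nr1d2 held none of these letters. A match is a description of the sequence, not a binding site. The 30-base stretches below belong to Ciart, Bhlhe41, Per1, Tef and Arntl, genes named in the covariation or the sex comparison. A second Tef E-box, at -138 of another start, and the matches of Per3 and Nr1d1 are not printed. Capitals mark the searched motif, and the number after each name is its distance in bases to the start.
Ciart at -116, chr3:95882327-95882356, minus strand: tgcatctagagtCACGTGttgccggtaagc
Ciart at -58, chr3:95882269-95882298, minus strand: cgcagggggaggCACGTGcagaaccgcacg
Ciart at -44, chr3:95882255-95882284, minus strand: cgtgcagaaccgCACGTGtctgggaggggg
Bhlhe41 at -153, chr6:145865556-145865585, minus strand: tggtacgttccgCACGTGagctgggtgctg
Per1 at -166, chr11:69098771-69098800, plus strand: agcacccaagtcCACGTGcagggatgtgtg
Tef at -127, chr15:81802534-81802563, plus strand: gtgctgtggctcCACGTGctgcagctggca
Arntl at 30, chr7:113207530-113207559, plus strand: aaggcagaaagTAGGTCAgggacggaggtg

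The libraries held 46091490 to 79484316 UMIs each, and 204852 nuclei were kept after filtering. Clusters were named from marker lists and are called "like" a cell type. The summed UMIs of a class, scaled to the total UMIs of that class in that library as counts-per-million (CPM), are the level of a gene throughout. CPM is not corrected for gene length, so levels are compared between classes and libraries and never between genes. Sex read from the libraries matched the labels in 27 of 27. The count file headers name software version 3.0.2 in 12 libraries, all from male mice, and 3.1.0 in 15 libraries, from 11 females and 4 males. Header version and sex therefore overlap and cannot be fully separated, and the sexes are also compared within header 3.1.0 below. Cgas itself (Mb21d1 in the files) did not fall with each copy lost, with or without tau. In microglia-like nuclei it averaged 37.6 ± 11.4 CPM (SD) in the 6 libraries labelled P301S Cgas+/+, 42.5 ± 11.1 CPM in the 6 labelled P301S Cgas+/- and 51.4 ± 7.13 CPM in the 6 labelled P301S Cgas-/-. It averaged 35.2 ± 2.12 CPM in the 5 labelled Cgas+/+, 19.1 ± 4.54 CPM in the 2 labelled Cgas+/- and 27.3 ± 8.14 CPM in the 2 labelled Cgas-/-. Over all nuclei these 3 groups without tau averaged 1.51 ± 0.215, 1.52 ± 0.28 and 1.94 ± 0.49 CPM, and the tau mice, in the same order of Cgas labels, 2.24 ± 0.834, 1.85 ± 0.395 and 1.89 ± 0.555 CPM. Which part of the gene the allele lacks is not given in the sources used here, so 3' tags may not test it. Directions below are therefore those of the labels.

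Per3 had 0 UMIs in all 27 libraries, among 241938 barcodes. Its gene body (chr4:151003652-151044665, minus strand, GRCm38) lies wholly within Camta1, which is on the same strand and had 1049024 UMIs in 27 of 27 libraries. Whether the counting discarded reads that fall in both genes was not tested, and no level is given for Per3. The other genes had between 10448 UMIs (Ciart, chr3:95878503-95882251, minus strand) and 166287 UMIs (Tef, chr15:81802421-81826863, plus strand). The body of Ciart is overlapped over its whole length by the antisense gene C920021L13Rik, which had 30423 UMIs. Sphk2 overlaps 14.4% of Dbp (chr7:45705088-45710203) and Thra overlaps 14.5% of Nr1d1 (chr11:98767932-98775333), each on the opposite strand. Ciart held its 10448 UMIs under an overlap of 100% on the opposite strand, and Per3 held 0 under an overlap of 100% on the same strand. The files do not state whether counting used strand, and mixing of reads between the opposite-strand pairs was not tested.

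The first question was in which cell classes each clock gene was found. Astrocyte-like nuclei and the vascular classes held the highest levels of Dbp, Nr1d1, Nr1d2 and Tef, Bhlhe41 was highest in microglia-like nuclei, and Arntl was highest in astrocyte-like and excitatory neuron-like nuclei. Neighbouring classes in the order of each gene were compared within libraries by a two-sided sign-flip permutation test with adjustment over 90 steps, and 44 of the 90 steps passed. The means below are over the libraries with at least 20 nuclei of the class. These were 27 libraries, except for endothelial-like (21 libraries) and pericyte or smooth muscle-like nuclei (22 libraries). Within the excitatory class they were 22 for CA3-like and 26 for dentate granule-like nuclei.

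Per1 and Per2, the negative arm of the loop, had different orders. Per1 was 56.0 ± 44.2 CPM in pericyte or smooth muscle-like, 52.0 ± 21.2 in endothelial-like, 39.9 ± 11.3 in astrocyte-like, 34.2 ± 11.5 in oligodendrocyte-like, 24.5 ± 10.96 in excitatory neuron-like, 21.3 ± 9.39 in microglia-like, 17.9 ± 6.92 in inhibitory neuron-like and 12.6 ± 5.34 in oligodendrocyte progenitor-like nuclei. The top 2 classes did not differ beyond their spread (adjusted p = 0.55 by permutation), nor did excitatory neuron-like, microglia-like and inhibitory neuron-like nuclei in sequence (0.20 and 0.13). Per2 was highest in pericyte or smooth muscle-like (103.5 ± 48.6 CPM) and oligodendrocyte progenitor-like nuclei (92.6 ± 23.3), which did not differ beyond their spread (adjusted p = 0.42). Oligodendrocyte progenitor-like nuclei, the class lowest in Per1, exceeded astrocyte-like nuclei (71.7 ± 16.8) in Per2 in 24 of 27 libraries (adjusted p = 3.9e-05). Per2 was then 40.4 ± 23.1 in endothelial-like, 37.05 ± 11.3 in excitatory neuron-like, 22.2 ± 7.06 in inhibitory neuron-like, 15.15 ± 7.07 in microglia-like and 9.34 ± 3.56 in oligodendrocyte-like nuclei. Mature oligodendrocyte-like nuclei were thus at the bottom for Per2 and in the middle for Per1.

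Dbp and Nr1d1, short genes with strong rhythmic output in many tissues, had a high level in 3 classes and a low one in the other 5. Dbp was 92.85 ± 51.9 CPM in pericyte or smooth muscle-like, 59.3 ± 17.6 in astrocyte-like and 53.3 ± 33.4 in endothelial-like nuclei, and between 6.55 ± 2.09 (oligodendrocyte-like) and 9.46 ± 4.84 (oligodendrocyte progenitor-like) in the other 5 classes. Nr1d1 was 55.0 ± 37.2, 46.5 ± 9.63 and 44.99 ± 27.7 CPM in the same 3 classes, and between 4.19 ± 1.48 (inhibitory neuron-like) and 8.35 ± 3.60 (excitatory neuron-like) in the others. The step from endothelial-like to the next class passed for both genes (adjusted p = 0.0001 and 7.2e-05), and none of the 4 steps below it did. Free RNA may be part of the lower levels, because Slc17a7, a marker of excitatory neurons (149 ± 30.3 CPM there), was read in each other class, from 8.48 ± 2.14 CPM in inhibitory neuron-like through 19.1 ± 5.88 in astrocyte-like and 40.6 ± 16.1 in microglia-like to 51.1 ± 21.1 in endothelial-like nuclei. Its part in the levels of clock genes was not tested.

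Nr1d2, the second REV-ERB gene, was 223.6 ± 61.2 CPM in pericyte or smooth muscle-like, 143.5 ± 50.1 in endothelial-like and 135.5 ± 24.0 in astrocyte-like nuclei. It did not fall as far elsewhere as Nr1d1 did. Microglia-like (73.5 ± 21.6), oligodendrocyte progenitor-like (72.7 ± 14.8) and oligodendrocyte-like nuclei (72.4 ± 18.3) formed a plateau with no step past the threshold (adjusted p = 0.90 and 0.91), and inhibitory (44.5 ± 7.08) and excitatory neuron-like nuclei (42.6 ± 9.64) followed. Tef was 234.0 ± 77.4 CPM in pericyte or smooth muscle-like and 211 ± 31.2 in astrocyte-like nuclei, which did not differ beyond their spread (adjusted p = 0.31). Astrocyte-like nuclei exceeded endothelial-like nuclei (141 ± 39.6) in Tef in 21 of 21 libraries (adjusted p = 3.9e-05), and inhibitory neuron-like nuclei were lowest (66.1 ± 8.60).

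Ciart, a repressor that is strongly rhythmic in liver and brain, ran from 20.1 ± 15.3 CPM in endothelial-like and 10.6 ± 6.71 in astrocyte-like to 3.67 ± 2.09 in inhibitory neuron-like and 2.41 ± 2.05 in microglia-like nuclei. In microglia-like nuclei the 11417 nuclei of 27 libraries held 46 Ciart UMIs. Bhlhe41 (DEC2), a repressor also known from microglia and macrophages, had a graded order without the vascular classes at the top. It was 46.4 ± 14.0 CPM in microglia-like, 31.7 ± 8.46 in astrocyte-like, 22.6 ± 5.13 in oligodendrocyte-like and 12.7 ± 4.26 in oligodendrocyte progenitor-like nuclei, and each of these 3 steps passed (adjusted p = 3.9e-05), in 25, 25 and 26 of 27 libraries. The vascular classes had 8.499 ± 10.1 and 6.01 ± 6.76 CPM, on 20 and 16 UMIs in all.

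Arntl, the activator, was highest in astrocyte-like (115 ± 33.9 CPM) and excitatory neuron-like nuclei (101 ± 14.5), and these did not differ beyond their spread (higher in astrocyte-like nuclei in 18 of 27 libraries, adjusted p = 0.068). Excitatory neuron-like nuclei exceeded inhibitory neuron-like nuclei (54.2 ± 10.8) in 27 of 27 libraries (adjusted p = 3.9e-05). Oligodendrocyte-like (39.2 ± 9.96) and oligodendrocyte progenitor-like nuclei (25.7 ± 7.91) were low, and pericyte or smooth muscle-like nuclei, at the top for Dbp, Nr1d2 and Tef, had 29.7 ± 23.7 CPM.

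**Figure D1:**
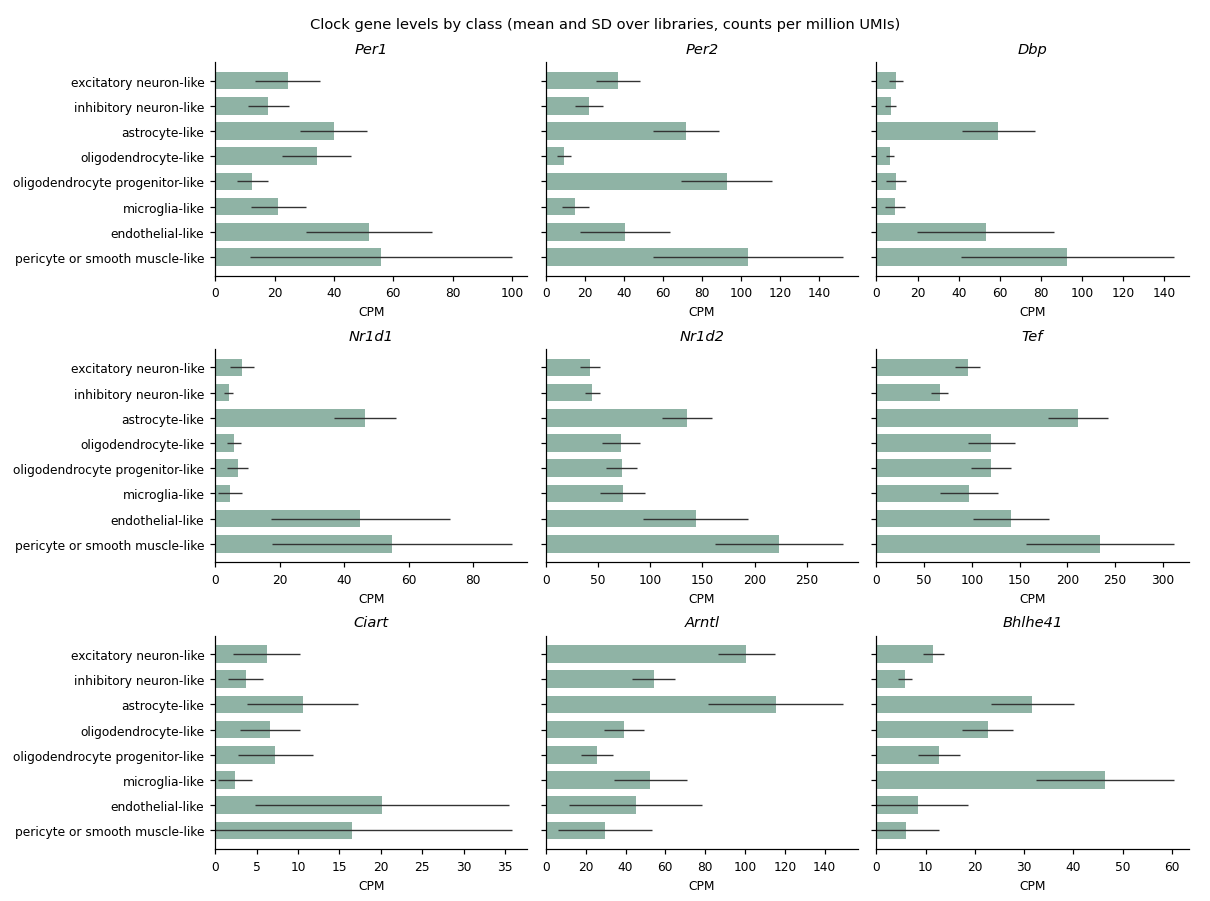
Mean level of 9 clock genes (CPM, horizontal axis, from 0) in 8 classes of nuclei, with bars for the SD over libraries. Dbp and Nr1d1 stand high in 3 classes and under 10 CPM in the other 5, Bhlhe41 peaks at 46.4 CPM in microglia-like nuclei, and Arntl has its peaks in astrocyte-like and excitatory neuron-like nuclei.

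Within the excitatory class, CA3-like nuclei had the lowest mean of 6 of the 9 genes, of which Nr1d1 did not differ beyond its spread from dentate granule-like nuclei (adjusted permutation p = 0.22), and for Per1, Per2 and Arntl CA3-like and dentate granule-like nuclei had the 2 lowest means and did not differ beyond their spread (adjusted permutation p = 0.13, 0.90 and 0.76). Bhlhe41 was 12.4 ± 3.45 CPM in dentate granule-like, 11.4 ± 2.40 in CA1-like and 1.49 ± 1.73 in CA3-like nuclei, lower in CA3-like than in CA1-like nuclei in 22 of 22 libraries (adjusted p = 3.9e-05). Dbp was 10.1 ± 4.08 CPM in CA1-like, 5.75 ± 2.35 in dentate granule-like and 2.90 ± 1.77 in CA3-like nuclei, with both steps past the threshold (adjusted p = 3.9e-05). Excitatory nuclei that matched no hippocampal subfield (called other excitatory-like, and able to hold cortical and subicular neurons) had the highest Nr1d1 and Nr1d2. Nr1d1 was 10.8 ± 3.63 CPM there against 6.75 ± 2.57 in CA1-like nuclei, and Nr1d2 was 52.1 ± 8.67 against 33.8 ± 7.41, each higher in 27 of 27 libraries (adjusted p = 3.9e-05). Per1 was 31.3 ± 11.8 CPM there and 12.8 ± 6.75 in dentate granule-like nuclei. Tef was 110.1 ± 17.1 CPM in dentate granule-like and 50.3 ± 8.59 in CA3-like nuclei, and Arntl was highest in CA1-like nuclei (126 ± 36.6), above other excitatory-like nuclei (106 ± 14.2, adjusted p = 0.0091). CA1-like and other excitatory-like nuclei did not differ beyond their spread in Per2 (42.6 ± 11.4 and 41.65 ± 12.8, adjusted p = 0.68).

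The spread of clock genes between mice was then set beside the trend over all tested genes, after genotype group and sex were fitted. Per1 and Ciart varied most in excitatory neuron-like, astrocyte-like and oligodendrocyte-like nuclei. Header version was not fitted, so differences between headers are part of this spread. Among males of the Cgas+/+ and P301S groups, 8 were of header 3.0.2 and 4 of header 3.1.0. In their excitatory neuron-like nuclei Per1 was 30.8 ± 11.45 and 17.4 ± 3.485 CPM in these headers. Ciart was 10.1 ± 5.16 and 4.475 ± 1.19 CPM there. The biological coefficient of variation is the fitted spread between mice beyond counting error. The percentiles rank a gene's fitted dispersion divided by the trend for genes of similar level, so they are not ranks of the coefficient itself. Per1 had a coefficient of 41.2% in excitatory neuron-like nuclei, at percentile 97.2 of 16919 genes. It stood at percentile 94.6 in astrocyte-like nuclei and 97.0 in those like inhibitory neurons. Ciart reached 44.2% (percentile 93.0) in excitatory neuron-like, 36.9% (89.6) in astrocyte-like and 37.7% (91.0) in oligodendrocyte-like nuclei, where Per1 had 26.2% (90.9). Per2, Dbp and Nr1d1 were at percentiles 88.6, 85.9 and 84.9 in excitatory neuron-like nuclei, whereas Nr1d2, Arntl, Tef and Bhlhe41 were at 64.8, 43.0, 42.2 and 29.0. In plain levels, Per1 ran from 9.36 to 50.8 CPM and Ciart from 1.98 to 18.03 CPM over the 27 excitatory neuron-like samples, while Tef ran from 62.4 to 123 CPM. Arntl was more spread in astrocyte-like nuclei (20.7%, percentile 83.8) than its place in excitatory neuron-like nuclei.

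The levels of these genes were then compared with each other across mice. Over log2(CPM + 1) in the 27 libraries, 135 relations were computed (36 gene pairs in each of 3 classes, and each gene between classes), and 89 had an adjusted permutation p under 0.05, 81 of them positive. In excitatory neuron-like nuclei, 25 of the 28 pairs without Arntl passed, all positive with a median r over the 28 of 0.67, and 0 of the 8 pairs with Arntl did. Over the 27 libraries those 8 had r from -0.18 to 0.32, but within header 3.0.2 they had r from 0.41 to 0.87 and within header 3.1.0 from -0.18 to 0.46. The median r of all 9907 genes with Dbp in these nuclei was 0.30, and 1289 of 9907 other genes had an r with Dbp as high as that of Per1. Per1 with Per2 (r = 0.86, rho = 0.87, adjusted permutation p = 6.4e-05) stood out from that background, as 6 of 9907 other genes had so high an r with Per1. Its r was 0.84 without the 2 libraries farthest from the median of Per1, and 0.96 and 0.83 within header versions 3.0.2 and 3.1.0. Nr1d2 with Ciart reached r = 0.90 (rho = 0.89, adjusted permutation p = 6.4e-05), 0.90 without the 2 farthest libraries and 0.93 and 0.81 within header versions, and 6 of 9907 other genes were as close to Nr1d2. These pairs therefore held among the males of header 3.0.2 alone and among the libraries of header 3.1.0 alone. Other excitatory-like nuclei made up 5.67% to 96.0% of the excitatory nuclei of a library. Against dentate granule-like nuclei they had Per1 at 31.3 and 12.8 CPM, Per2 at 41.65 and 26.2, Nr1d2 at 52.1 and 32.9 and Ciart at 7.63 and 4.27. The part of this makeup in the r values was not tested.

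**Figure D2:**
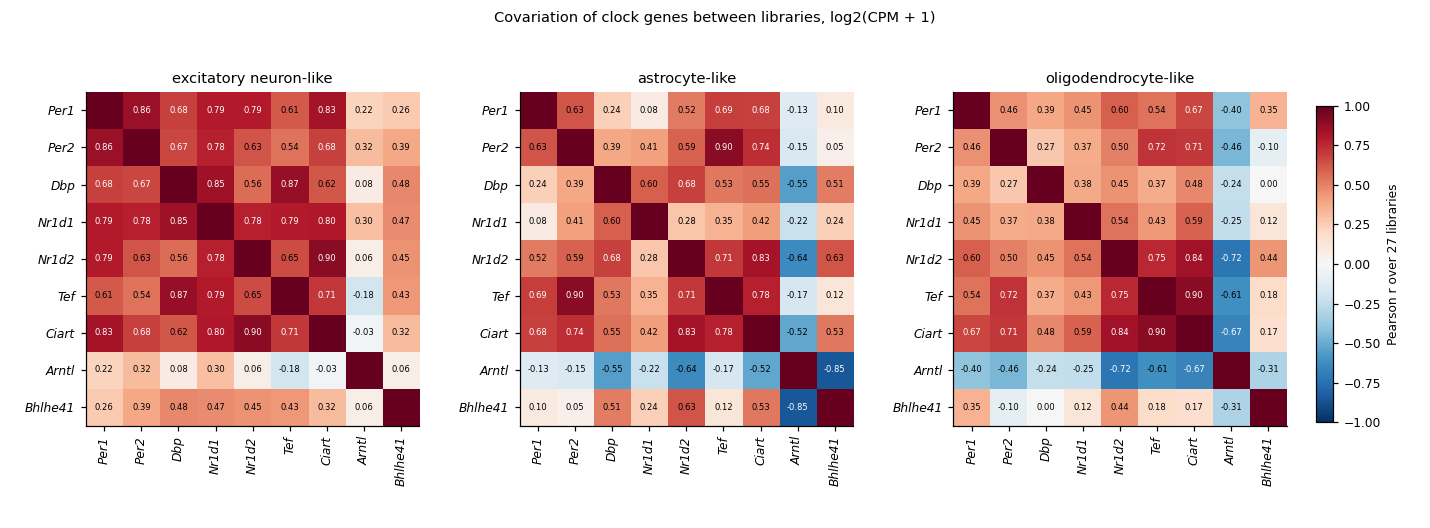
Pearson r over 27 libraries for each pair of 9 clock genes, log2(CPM + 1), in 3 classes, with red for positive and blue for negative r. Pairs without Arntl are mostly positive in each class, and the Arntl row turns negative in astrocyte-like and oligodendrocyte-like nuclei, down to -0.85 with Bhlhe41.

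In glia the pairs with Arntl that passed were negative, 4 of 8 in each class. In astrocyte-like nuclei 23 of 36 pairs passed, 19 positive and 4 negative, and in oligodendrocyte-like nuclei 21 of 36 passed, 17 positive and 4 negative, with Arntl in all 8 negative pairs. Arntl with Bhlhe41 in astrocyte-like nuclei had the lowest r of the 135 relations, -0.85 (rho = -0.84, adjusted permutation p = 6.4e-05). It was -0.79 without the 2 farthest libraries and -0.72 and -0.88 within header versions 3.0.2 and 3.1.0, and 1 of 10822 other genes had so low an r with Arntl. Within males it was -0.80 and within females -0.52. The other Arntl pairs that passed in astrocyte-like nuclei, with Nr1d2, Dbp and Ciart, stood out less, as 321, 831 and 1100 of 10822 other genes had as low an r with Arntl. Dbp had 0.16 and -0.54 within header versions 3.0.2 and 3.1.0, and Ciart had -0.19 within males and 0.56 within females. Per1, Per2, Tef and Nr1d1 had r from -0.13 to -0.22 with Arntl there, close to the median of -0.16 over all 10822 genes. In excitatory neuron-like nuclei the same pair had r = 0.06 (adjusted permutation p = 0.79) and in oligodendrocyte-like nuclei -0.31 (0.14). Arntl with Nr1d2 had r = -0.64 in astrocyte-like nuclei (adjusted permutation p = 0.0015), with -0.59 and -0.67 within header versions, but only -0.15 within males and -0.29 within females. In oligodendrocyte-like nuclei that pair had r = -0.72 (adjusted permutation p = 0.00011), but only -0.21 and -0.43 within header versions. The other 3 Arntl pairs that passed in oligodendrocyte-like nuclei, with Ciart, Tef and Per2, had r = -0.82, -0.74 and -0.73 in header 3.0.2 and 0.00, 0.06 and 0.23 in header 3.1.0. Over all libraries, 10, 42, 111 and 644 of 10152 other genes had as low an r with Arntl there as Nr1d2, Ciart, Tef and Per2.

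Of the positive pairs that passed, 18 of 19 in astrocyte-like, 9 of 17 in oligodendrocyte-like and 0 of 25 in excitatory neuron-like nuclei had a lower r within both header versions than over all libraries. Over all libraries, Per2 with Tef in astrocyte-like nuclei had r = 0.90 (rho = 0.88, adjusted permutation p = 6.4e-05; 0 of 10822 other genes as high), with 0.66 and 0.82 within header versions, and Nr1d2 with Ciart had r = 0.83, with 0.50 and 0.34. Of the 89 relations, 29 passed among the 12 libraries of header 3.0.2 alone and 16 among the 15 of header 3.1.0 alone, and 77 and 84 kept their sign. Within astrocyte-like nuclei, 1 of 36 pairs passed in header 3.0.2 alone (0 of the 28 without Arntl) and 2 of 36 in header 3.1.0 alone. The groups of fewer libraries also have less power, which bears on these counts. The median r of the 28 pairs without Arntl in astrocyte-like nuclei was 0.53 over all libraries. It was 0.0035 in header 3.0.2 and 0.20 in header 3.1.0. In oligodendrocyte-like nuclei the same medians were 0.45, 0.29 and 0.26, and in excitatory neuron-like nuclei 0.67, 0.81 and 0.59. The part of sample number in the counts was not tested.

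Between classes of the same mouse, 20 of 27 relations passed and all 20 were positive. The share of all genes with such a relation between classes was not computed, so this count has no background beside it. The classes of a mouse also come from 1 library and may share its free RNA. The neuronal marker Slc17a7 was read at 19.1 ± 5.88 CPM in astrocyte-like and 33.1 ± 10.4 CPM in oligodendrocyte-like nuclei. The part of free RNA in these relations was not tested. Ciart in astrocyte-like against oligodendrocyte-like nuclei had r = 0.87 (rho = 0.88, adjusted permutation p = 6.4e-05), 0.88 without the 2 farthest libraries and 0.59 and 0.65 within header versions. Tef had r = 0.83 (0.75 and 0.62) and Per1 had r = 0.72 (0.72 and 0.59) between the same classes, each with the values within header versions 3.0.2 and 3.1.0 in parentheses. Nr1d2 had r = 0.87 over the 27 libraries, but 0.64 and 0.11 within them. Arntl had the lowest r of these relations, 0.15 between excitatory neuron-like and astrocyte-like nuclei (adjusted permutation p = 0.51), with 0.36 between astrocyte-like and oligodendrocyte-like nuclei (0.092). Between excitatory neuron-like and oligodendrocyte-like nuclei Arntl passed, with r = 0.62 (adjusted permutation p = 0.0015; 0.10 and 0.44 within header versions), and Per2 had 0.19 between excitatory neuron-like and astrocyte-like nuclei (0.40).

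**Figure D3:**
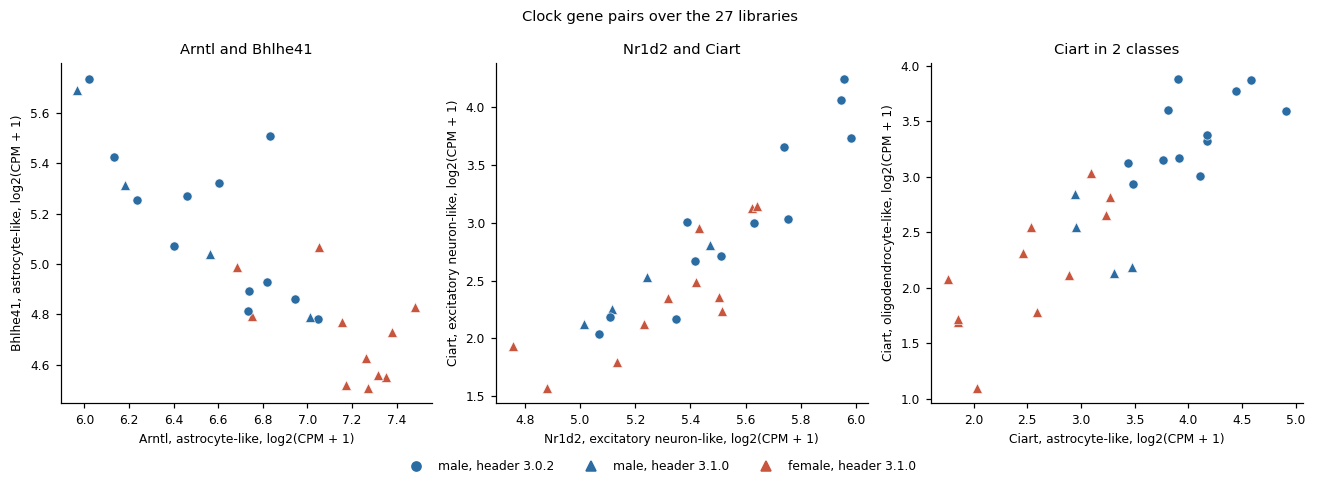
Levels of 3 pairs in each of 27 libraries, log2(CPM + 1) on both axes, with blue for males and red for females, circles for header version 3.0.2 and triangles for 3.1.0. Arntl and Bhlhe41 fall along a descending line in astrocyte-like nuclei (r = -0.85), Nr1d2 and Ciart rise together in excitatory neuron-like nuclei (r = 0.90), and Ciart rises together in astrocyte-like and oligodendrocyte-like nuclei (r = 0.87).

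The study's main question was how tau and loss of Cgas change the hippocampus, and clock genes were compared along the same lines. Summed counts per mouse were tested in 5 classes with the quasi-likelihood test of edgeR, sex as a covariate and Benjamini-Hochberg adjustment over all genes of the class. Each library is a separate mouse, and p-values measure the spread between these mice. Ciart, Dbp and Nr1d1 were too sparse to test in microglia-like nuclei, which left 42 tests of 9 genes. P301S Cgas+/+ against Cgas+/+ mice gave 0 of 42 calls (0.0109% of all 64027 tests were called), P301S Cgas-/- against P301S Cgas+/+ mice gave 0 of 42 (background 0%) and P301S Cgas+/- against P301S Cgas+/+ mice gave 0 of 42 (background 0.00156%). At an unadjusted p under 0.05 the counts were 2 up and 1 down, 2 up, and 1 up. Those for tau lay in astrocyte-like and microglia-like nuclei, where 11.3% and 15.8% of all genes had such a p. Those with loss of Cgas lay in excitatory neuron-like nuclei, where 13.4% (no copy) and 11.9% (1 copy) of all genes did. DESeq2 called 1, 0 and 0, and its share over all genes is not given here. Fold changes on the log2 scale ran from -0.46 to 0.86 (median -0.02), from -0.18 to 0.63 (median 0.10) and from -0.32 to 0.67 (median 0.10).

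The tau transgene came with the largest difference in microglia-like Bhlhe41. The 5 libraries labelled Cgas+/+ had 21.2, 26.4, 27.9, 30.45 and 43.0 CPM, and the 6 labelled P301S Cgas+/+ had 35.6 at the lowest, 52.6 at the median and 70.3 at the highest. The highest Cgas+/+ library lay within the range of the tau mice, and the other 4 lay below it. The log2 fold change was 0.86 ± 0.24 (SE) with a fold of 1.82, and did not pass (edgeR, adjusted p = 0.10). It rests on 6 to 125 UMIs per library. It passed with DESeq2, without a filter on low counts and without P301S Cgas+/+ replicate 2. P301S Cgas+/- mice had 18.9 to 56.9 CPM (median 53.4) and P301S Cgas-/- mice 40.6 to 61.2 CPM (median 58.2). Microglia-like nuclei of P301S Cgas+/+ mice also held more UMIs, 1869 ± 537 per nucleus against 1405 ± 136 in Cgas+/+ mice, and summed markers of oligodendrocytes at 640 ± 202 against 383 ± 120 CPM, and their part in the Bhlhe41 values was not tested.

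Astrocyte-like nuclei showed Bhlhe41 and Arntl at opposite signs in the tau comparison, neither past the threshold. Bhlhe41 was 22.5, 22.6, 26.5, 26.6 and 28.7 CPM in Cgas+/+ mice and 26.7 to 52.3 CPM (median 30.7) in P301S Cgas+/+ mice, a log2 fold change of 0.40 ± 0.13 (edgeR, adjusted p = 0.28). Arntl was 105.7, 128, 131, 158 and 162 CPM in Cgas+/+ mice and 63.9 to 178 CPM (median 109.5) in P301S Cgas+/+ mice, a log2 fold change of -0.40 ± 0.18 (edgeR, adjusted p = 0.42). The ranges overlapped for both genes. In the other classes the member with the smallest p in this contrast was Bhlhe41 in excitatory (0.21 ± 0.12) and inhibitory neuron-like nuclei (0.30 ± 0.20) and Dbp in oligodendrocyte-like nuclei (-0.41 ± 0.25), with adjusted p of 0.81 or more by edgeR.

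In excitatory neuron-like nuclei of tau mice the REV-ERB genes had positive log2 fold changes with loss of Cgas, none past the threshold. Nr1d1 was 2.74 to 13.2 CPM (median 6.03) in P301S Cgas+/+ mice, 8.15 to 14.98 CPM (median 10.5) in P301S Cgas+/- mice and 5.63 to 17.3 CPM (median 9.17) in P301S Cgas-/- mice. The groups overlapped. The log2 fold change was 0.63 ± 0.28 with no Cgas (edgeR, adjusted p = 0.32) and 0.67 ± 0.28 with 1 copy (0.33), both against the same P301S Cgas+/+ mice. Nr1d2 had 0.29 ± 0.14 with no Cgas (edgeR, adjusted p = 0.35), from 38.6 ± 13.4 CPM (SD, n = 6) to 48.0 ± 8.82. The share of other excitatory-like nuclei, the subclass highest in Nr1d1 and Nr1d2, moved in the same direction, from 38.6 ± 30.8% of excitatory nuclei in P301S Cgas+/+ to 68.0 ± 15.7% in P301S Cgas+/- and 70.1 ± 19.1% in P301S Cgas-/- mice. Within hippocampal-like nuclei alone, the log2 fold change of Nr1d1 was 0.42 with no Cgas and 0.32 with 1 copy, and that of Nr1d2 was 0.08 with no Cgas. In the other classes the member with the smallest p with no Cgas was Per2 in inhibitory neuron-like (0.32 ± 0.21), Nr1d1 in astrocyte-like (0.29 ± 0.17), Dbp in oligodendrocyte-like (0.32 ± 0.23) and Tef in microglia-like nuclei (0.18 ± 0.21). With 1 copy it was Ciart in inhibitory neuron-like (0.52 ± 0.31) as well as astrocyte-like nuclei (0.46 ± 0.34), Bhlhe41 in oligodendrocyte-like (0.25 ± 0.16) and Arntl in microglia-like nuclei (-0.19 ± 0.21). All 8 had an adjusted p of 0.90 or more by edgeR.

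Without the tau transgene, the 2 mice labelled Cgas-/- were compared with the 5 labelled Cgas+/+ in a fit of all 27 mice. This gave 0 of 43 calls by edgeR (background 0%), with 0 at an unadjusted p under 0.05 and log2 fold changes from -0.89 to 0.58. The member with the smallest p was Nr1d2 in excitatory neuron-like (-0.32 ± 0.20), Per2 in inhibitory neuron-like (-0.31 ± 0.32) and oligodendrocyte-like (-0.74 ± 0.40), Bhlhe41 in astrocyte-like (0.36 ± 0.20) and Arntl in microglia-like nuclei (-0.40 ± 0.33). The interaction, which asks whether loss of Cgas acts differently with tau than without it, gave 0 of 43 (background 0.102%) and 2 up at an unadjusted p under 0.05, both in excitatory neuron-like nuclei (2 of 9), where 18.6% of all genes had such a p. These were Nr1d1 (1.17 ± 0.49, adjusted p = 0.20) and Nr1d2 (0.61 ± 0.24, adjusted p = 0.17) in excitatory neuron-like nuclei, by edgeR. In the other 4 classes the smallest p belonged to Per2 in inhibitory neuron-like (0.64 ± 0.39), Bhlhe41 in astrocyte-like (-0.35 ± 0.25) and microglia-like (-0.36 ± 0.38) and Dbp in oligodendrocyte-like nuclei (0.55 ± 0.43). The Cgas-/- mice without tau had 4.83 and 5.28 CPM of Nr1d1 and 32.5 and 33.5 CPM of Nr1d2, and their share of other excitatory-like nuclei was 11.9 ± 5.59%, against a mean of 50.5% in Cgas+/+ mice. Both groups of 2 mice were male and of header version 3.0.2, as were 2 of the 5 Cgas+/+ mice, and header version was not fitted in this comparison.

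**Figure D4:**
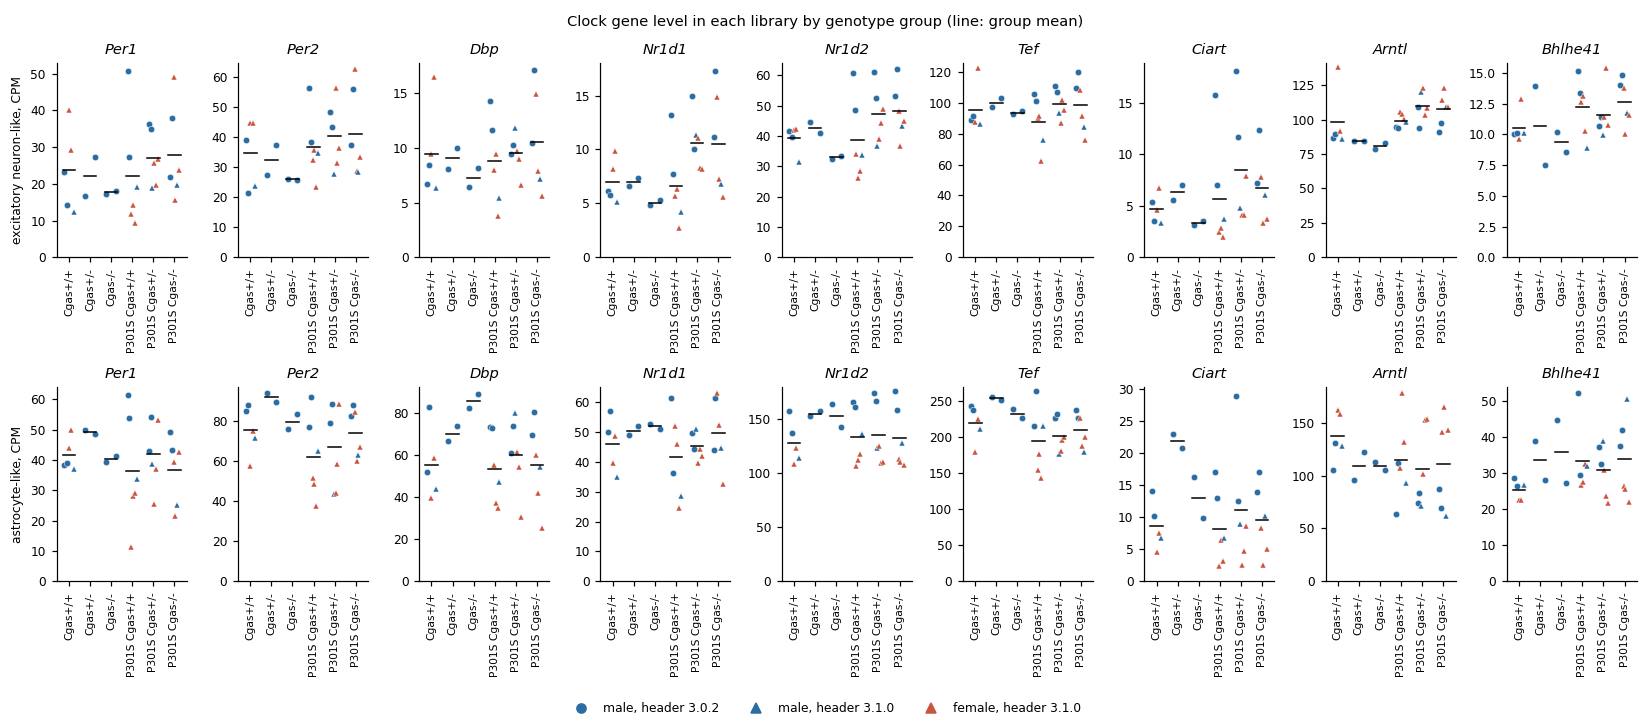
Level of 9 clock genes (CPM, vertical axis, from 0) in each library by genotype group, in excitatory neuron-like (top) and astrocyte-like nuclei (bottom), with a line at the group mean, blue for males, red for females, circles for header version 3.0.2 and triangles for 3.1.0. The 4 larger groups overlap for each gene, and in astrocyte-like nuclei most females stand above the males in Arntl and below them in Ciart.

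The comparison of females with males gave calls among clock genes, and each lost its call once header version was fitted. The 8 libraries of header 3.0.2 in it are all male. With header version fitted, the fold changes of Arntl and Bhlhe41 in astrocyte-like nuclei were as large as without it, while those of Ciart and Nr1d2 were smaller. Over the 23 mice of the 4 main groups, females against males gave 9 calls of 42 by edgeR, 2 higher and 7 lower in females, and at an unadjusted p under 0.05 there were 5 higher and 15 lower, from 2 of 9 in both neuron-like classes to 7 of 9 in astrocyte-like and oligodendrocyte-like nuclei, beside 8.43% (microglia-like) to 23.3% (excitatory neuron-like) of all genes in a class. Calls were 4 of 9 genes in astrocyte-like nuclei (background 1.83%), 2 of 9 in oligodendrocyte-like (background 1.83%), 1 of 9 in excitatory neuron-like (background 7.64%), 1 of 9 in inhibitory neuron-like (background 2.58%) and 1 of 6 in microglia-like nuclei (background 0.11%). For excitatory neuron-like nuclei that share is close to the background. Over the members of a class the median log2 fold change was -0.30 in astrocyte-like and -0.36 in oligodendrocyte-like nuclei, beside -0.01 over all genes in both. Those counts and medians are from the fit without header version. With header version fitted, the members ran from -0.34 (Dbp) to 0.12 (Per2) in oligodendrocyte-like nuclei. The smallest unadjusted p there was 0.15 (Per1, edgeR). In astrocyte-like nuclei they ran from -0.71 (Ciart) to 0.81 (Arntl), with Tef at -0.03 and Per2 at 0.03. Only Arntl, Bhlhe41 and Ciart had an unadjusted p under 0.05 in that class.

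In the fit without header version, Arntl was higher in females. In astrocyte-like nuclei the 11 females had 102 to 178 CPM (median 152) and the 12 males 61.6 to 131 CPM (median 85.4). All 11 females stood above the male median and 9 of 11 above every male. The log2 fold change was 0.78 ± 0.13, a fold of 1.72 (edgeR, adjusted p = 0.0033). In excitatory neuron-like nuclei Arntl rose from 97.4 ± 10.3 CPM in males (SD, n = 12) to 111 ± 12.8 in females (n = 11), a log2 fold change of 0.25 ± 0.07 (edgeR, adjusted p = 0.038), a call lost in 15 of 31 alternatives (0.07 to 0.38), 12 of which left out 1 mouse. It was 0.36 ± 0.11 in oligodendrocyte-like, 0.26 ± 0.09 in inhibitory neuron-like and 0.58 ± 0.15 in microglia-like nuclei, which did not pass (adjusted p = 0.086, 0.12 and 0.15 by edgeR). With header version fitted, these 3 values were 0.11 ± 0.14, 0.15 ± 0.12 and 0.27 ± 0.19. In oligodendrocyte-like nuclei Arntl was 33.4 ± 3.55 CPM in males of header 3.0.2 and 42.1 ± 3.98 in males of header 3.1.0. Females had 46.0 ± 10.2 CPM there.

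Of the genes that oppose the activator, Ciart, Nr1d2 and, in astrocyte-like nuclei, Bhlhe41 were lower in females, while Per1, Per2 and Nr1d1 passed in no class. Ciart in astrocyte-like nuclei was 2.39 to 8.65 CPM (median 4.796) in females and 6.71 to 29.0 CPM (median 12.8) in males, with 8 of 11 females below every male. The log2 fold change was -1.39 ± 0.26 (edgeR, adjusted p = 0.012), and it was -1.06 ± 0.23 in inhibitory neuron-like (0.015) and -1.11 ± 0.27 in oligodendrocyte-like nuclei (0.033), where the call was lost in 15 of 30 alternatives (-1.25 to -0.29). Nr1d2 fell in 3 glial classes, by 0.37 in astrocyte-like, by 0.48 in oligodendrocyte-like and by 0.56 in microglia-like nuclei on the log2 scale (edgeR, adjusted p = 0.014, 0.015 and 0.049). The call in microglia-like nuclei was lost in 21 of 30 alternatives (-0.60 to -0.32), 17 of which left out 1 mouse. The levels there were 81.5 ± 17.1 CPM in males and 54.8 ± 10.3 in females. Bhlhe41 in astrocyte-like nuclei was 21.8 to 32.5 CPM (median 25.5) in females and 26.5 to 52.3 CPM (median 34.9) in males, with 7 of 11 females below every male and a log2 fold change of -0.46 ± 0.09 (edgeR, adjusted p = 0.014). Dbp in astrocyte-like (-0.51 ± 0.14) and Per1 in oligodendrocyte-like nuclei (-0.59 ± 0.17) did not pass (adjusted p = 0.069 and 0.066 by edgeR), and neither did Tef (-0.20 ± 0.09) or Per2 (-0.30 ± 0.14) in astrocyte-like nuclei. In oligodendrocyte-like nuclei Nr1d1 had -0.47 ± 0.20, Dbp -0.36 ± 0.17 and Tef -0.25 ± 0.09, and in excitatory neuron-like nuclei Ciart had -0.77 ± 0.28, none past the threshold.

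**Figure D5:**
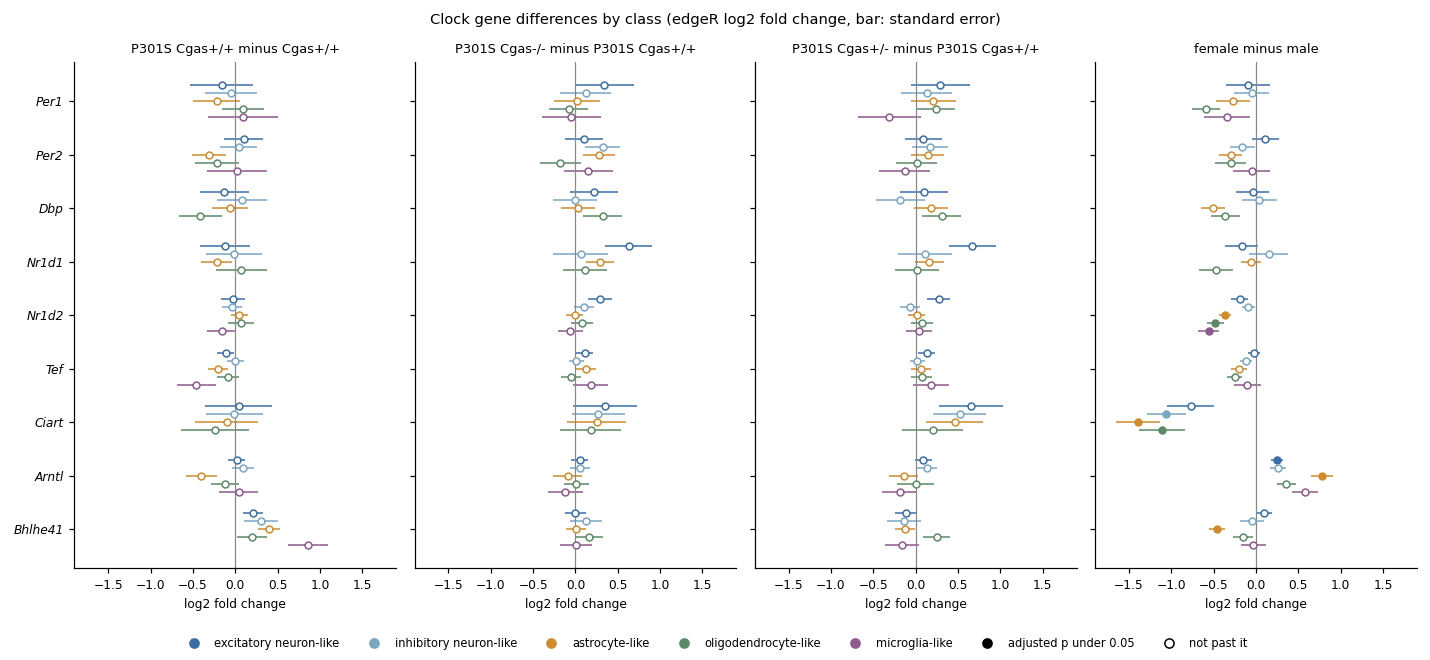
Fitted log2 fold change of 9 clock genes in 5 classes for 3 genotype comparisons and for sex without header version as a covariate, with bars for the standard error and filled points for an adjusted p under 0.05 by edgeR. Filled points appear only in the sex panel, 9 of 42, with Arntl to the right of 0 and Ciart, Nr1d2 and Bhlhe41 to the left.

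The header version of the libraries ran alongside sex, and the 4 males of header 3.1.0 let the 2 be set side by side. For Ciart and Nr1d2 these males were lower than the other males. Nr1d2 in astrocyte-like nuclei was 137 to 176 CPM (median 164) in the 8 males of header 3.0.2, 114, 123, 128 and 136 CPM in the 4 males of header 3.1.0 and 107 to 125 CPM (median 111) in the 11 females, so the males did not overlap between headers and the males of header 3.1.0 overlapped with females. Ciart in oligodendrocyte-like nuclei was 9.61 ± 2.28 CPM in males of header 3.0.2, 3.39, 3.55, 4.86 and 6.20 in the 4 males of header 3.1.0 and 3.82 ± 1.85 in females. For Arntl and Bhlhe41 in astrocyte-like nuclei the males of both headers overlapped, with means close to each other. Arntl was 90.9 ± 23.4 CPM in males of header 3.0.2, 61.6, 71.5, 93.5 and 128 CPM in the males of header 3.1.0, and 145 ± 23.7 in females. Bhlhe41 was 35.8 ± 8.48 CPM in males of header 3.0.2, 26.6, 31.9, 38.8 and 50.6 CPM in the males of header 3.1.0, and 25.6 ± 3.62 in females.

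With header version as a covariate, 0 of 42 tests of sex passed, and 0 passed in the libraries of header 3.1.0 alone. The calls over all genes fell as well, in excitatory neuron-like nuclei from 1293 to 12 of 16919 with the covariate and to 6 of 16806 in header 3.1.0 alone, and in astrocyte-like nuclei from 237 to 12 of 12975 and to 9 of 12969. With the covariate, the log2 fold change in astrocyte-like nuclei was 0.81 ± 0.19 for Arntl and -0.50 ± 0.12 for Bhlhe41, as large as without it, with an adjusted p of 0.12 for both by edgeR. Ciart went from -1.39 to -0.71 ± 0.29 and Nr1d2 from -0.37 to -0.12 ± 0.07. Ciart in inhibitory neuron-like nuclei went from -1.06 to -0.66 ± 0.29 and Nr1d2 in microglia-like nuclei from -0.56 to -0.34 ± 0.14. In oligodendrocyte-like nuclei Ciart went from -1.11 to -0.31 ± 0.33 and Nr1d2 from -0.48 to -0.11 ± 0.10, and Arntl in excitatory neuron-like nuclei from 0.25 to 0.09 ± 0.09. Whether mice of the 2 sexes or header versions were taken at different times of day was not tested. In astrocyte-like nuclei, summed excitatory neuron markers were 1296 ± 260 CPM in males and 1384 ± 325 in females. Summed oligodendrocyte markers were 196 ± 60.2 and 216 ± 51.6 CPM. UMIs per nucleus in this class were 3651 ± 821 in males and 3861 ± 871 in females. These values pool both header versions among males, and those of other classes are not given here. The part of free RNA and depth in the sex differences was not tested.

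The rest of the clock pathway was read from a list of 20 other clock genes, among them the ARNTL partners Clock and Npas2, the repressors Cry1 and Cry2, the ROR activators and the casein kinases that act on PER. By edgeR, 0 of 86 tests passed in each of the 3 genotype comparisons, with 5 up and 7 down, 7 up and 2 down, and 7 up and 0 down at an unadjusted p under 0.05. The 12 for tau were 5 of 18 in astrocyte-like (11.3% of all genes there had such a p), 4 of 18 in oligodendrocyte-like (6.69%) and 3 of 13 in microglia-like nuclei (15.8%). With loss of Cgas, 2.90% to 13.4% (no copy) and 2.42% to 11.9% (1 copy) of all genes in a class had such a p. Nampt, the enzyme that recycles nicotinamide into NAD and a clock target, had tau differences of 0.61 ± 0.16 in astrocyte-like, 0.33 ± 0.11 in oligodendrocyte-like and 0.96 ± 0.29 in microglia-like nuclei (adjusted p = 0.24, 0.69 and 0.11). Clock had 0.48 ± 0.16 in oligodendrocyte-like and the casein kinase gene Csnk1e had -0.38 ± 0.12 in microglia-like nuclei (adjusted p = 0.69 and 0.13). Rorb, an activator of Arntl that also marks a layer of cortical neurons, had 1.51 ± 0.51 with no Cgas and 1.98 ± 0.51 with 1 copy in excitatory neuron-like nuclei (adjusted p = 0.23 and 0.18), and 0.08 and 0.02 in hippocampal-like nuclei alone. In inhibitory neuron-like nuclei Rorb had 0.74 ± 0.28 and 0.99 ± 0.27 (adjusted p = 0.69 and 0.40), and with 1 copy it had 0.76 ± 0.31 in oligodendrocyte-like nuclei. With no Cgas, Nampt had -0.25 ± 0.08 in excitatory neuron-like and -0.38 ± 0.15 in astrocyte-like nuclei, and Csnk1e had 0.32 ± 0.11 in microglia-like nuclei. With 1 copy, Csnk1e had 0.41 ± 0.16 in excitatory neuron-like nuclei and Usp2, a deubiquitinase under clock control, had 0.32 ± 0.14 in inhibitory neuron-like nuclei. The same Cgas groups had the higher share of other excitatory-like nuclei given above. For sex, 1 of 86 passed, Csnk1e in inhibitory neuron-like nuclei (0.31 ± 0.08, adjusted p = 0.041 by edgeR), 1 of 18 tests beside a background of 2.58% in that class. This call was lost in 19 of 30 alternatives (0.27 to 0.37). In astrocyte-like nuclei, Npas2 had 0.38 ± 0.14, and the E-box targets Wee1 and Cry1 had -0.57 ± 0.17 and -0.39 ± 0.15 (adjusted p = 0.17, 0.075 and 0.20). In the fit of all mice, 0 of 89 passed for deletion without tau and 0 of 89 for the interaction (0 up and 3 down, and 11 up and 1 down, at an unadjusted p under 0.05). Of the 12 for the interaction, 8 of 20 were in excitatory neuron-like nuclei, where 18.6% of all genes had such a p, beside 3.18% to 7.49% in the other classes. For deletion without tau 2.49% to 7.55% of all genes in a class did. For deletion without tau these were Npas2 (-0.85 ± 0.37) and Csnk1e (-0.51 ± 0.24) in excitatory neuron-like and Noct (-1.51 ± 0.46) in oligodendrocyte-like nuclei. For the interaction, the 5 of smallest p were Rorb (3.18 ± 0.99), Csnk1e (0.88 ± 0.29), Nampt (-0.42 ± 0.14) and Npas2 (1.18 ± 0.45) in excitatory neuron-like nuclei and Noct (1.40 ± 0.52) in oligodendrocyte-like nuclei.

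Signals that reset the clock were read from 3 further lists. Of 12 immediate early genes, which neuronal activity and light induce, 0 of 41 tests passed in any of the 3 genotype comparisons or for sex by edgeR. At an unadjusted p under 0.05, 19 of 41 were higher and 0 lower in P301S Cgas-/- than in P301S Cgas+/+ mice, with a median log2 fold change of 0.74. These were 9 of 12 in excitatory neuron-like (13.4% of all genes had an unadjusted p under 0.05 there), 4 of 8 in inhibitory neuron-like (5.77%), 1 of 7 in astrocyte-like (4.44%), 5 of 10 in oligodendrocyte-like (4.36%) and 0 of 4 in microglia-like nuclei (2.90%). The share of other excitatory-like nuclei also differed between these groups (38.6% and 70.1%), and P301S Cgas+/- mice, with a share of 68.0%, had 2 of 41 higher and 0 of 12 in excitatory neuron-like nuclei, with a median log2 fold change of 0.27. In Cgas-/- mice without tau, with a share of 11.9%, the median was -0.67. Values of immediate early genes in hippocampal-like nuclei alone are not given here, and the part of this share in them was not tested. Of 10 glucocorticoid target genes, which stress and the daily corticosterone rise induce, 0 of 41 passed in the genotype comparisons and 1 of 41, lower in females in excitatory neuron-like nuclei, passed for sex, 1 of 9 tests in that class beside a background of 7.64%. For tau in astrocyte-like nuclei, 2 of 10 were higher and 0 lower at an unadjusted p under 0.05, beside 11.3% of all genes. Their log2 fold changes there ran from -0.49 to 3.01. Tau gave 0 of 9 in excitatory and 0 of 6 in inhibitory neuron-like nuclei. Other unadjusted counts of this list are not given here. Of 8 temperature and heat shock genes, 6 could be tested and 0 of 27 tests passed for genotype or sex.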

How the data were processed

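Deposited values were raw UMI counts per gene and barcode, made by the authors with Cell Ranger (3.1.0 per the submitters' processing notes, 3.0.2 or 3.1.0 per the file headers) from 10x 3' v3 libraries aligned to mm10, with pre-mRNA reads counted. The members and all gene lists were chosen with earlier results of these data known, and list results are no independent evidence. The study's filter (200 to 4000 genes, mitochondrial share up to 5%) left 221281 of 241938 barcodes, and 16429 likely doublets were removed (Scrublet, 0.8% per 1000 barcodes). Counts were clustered (scanpy 1.11.5, 2000 genes, 30 components, 15 neighbours, Leiden resolution 1), and 34 of 43 clusters were named from markers. The other 9, with 14764 nuclei, stayed unnamed. Any 2 libraries shared at most 48 barcode sequences (0.57%). No 2 libraries of a group agreed within sampling noise (chi-square per gene 40.3 to 214).

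UMIs were summed per mouse and class and tested with edgeR 4.0.16 (R 4.3.3, TMM, filterByExpr, robust quasi-likelihood fit, tested on simulated data), where an adjusted p under 0.05 is a call. DESeq2 1.42.0 and other scalings were alternatives. The study tested nuclei. The Cgas+/- and Cgas-/- groups without tau (2 mice each) entered only the fit of all mice, as the study left them out. Levels were compared by sign-flip permutation and correlations by permutation (100000 draws, where 1e-05 is the smallest p they can give, two-sided, scipy 1.17.1) with a pseudocount of 1 CPM. Positions came from GENCODE vM21, which matched 30934 of 31053 gene IDs. Members with an unadjusted p under 0.05 in a class and comparison, or otherwise the member of smallest p, were named, with up to 5 other clock genes per comparison by smallest p under 0.05. A result of this rule for the sex comparison is not reported here.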

Additional observations from a re-analysis of the deposited data

Results flagged for a closer look

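Each of the 9 measured clock genes was examined in the 4 main groups for a sample far from the others, in excitatory neuron-like and astrocyte-like nuclei (72 sets of values). In 7 of the 72 sets the highest or lowest sample stood apart by Dixon's 95% criterion, where chance flags about 1 in 20. In excitatory neuron-like nuclei, Cgas+/+ replicate 5 was low in Nr1d2 (31.3 CPM, next 39.7), Cgas+/+ replicate 4 was high in Tef (123 CPM, next 91.3) and in Bhlhe41 (12.9 CPM, next 10.2), and Cgas+/+ replicate 3 was high in Arntl (138 CPM, with replicate 4 next). P301S Cgas+/+ replicate 1 was high in Ciart (15.8 CPM, next 7.0) and P301S Cgas+/- replicate 5 was high in Bhlhe41 (15.4 CPM, next 11.4). In astrocyte-like nuclei, P301S Cgas+/+ replicate 1 was high in Bhlhe41 (52.3 CPM, next 32.5), the set behind the tau comparison of that gene.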

How the results depend on the processing

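No paired analysis was possible because each library is a different mouse of 1 group and the replicate numbers used here were given in accession order, as the labels carry none. Calls of clock genes for tau were 1 in place of 0 (Bhlhe41 in microglia-like nuclei) without a low-count filter and 1 with DESeq2, and 0 to 1 when each mouse was left out. For deletion and the heterozygous comparison they stayed at 0 under each alternative run, and at 0 to 0 when each mouse was left out. Calls for sex went from 9 to 0 with header version as a covariate and to 0 in the libraries of header 3.1.0 alone, to 6 in the P301S mice alone, and to 6 to 11 when each mouse was left out. Per2 in astrocyte-like nuclei reversed from -0.30 to 0.03 and 0.02 in the 2 header alternatives, and header and sex are confounded in the males of 3.0.2. Relations between clock genes fell from 89 to 33 in libraries of header 3.0.2 alone and to 16 in those of 3.1.0 alone, and were 88 with a pseudocount of 5 CPM, 79 within groups, 74 with TMM scaling and 68 without the 2 farthest libraries. Steps between classes were 43 in place of 44 with nuclei of at least 1000 UMIs. The single-header, all-mice, P301S-only and sex leave-one-out alternatives were chosen after seeing the data. Of the single-gene values, 1357 kept their sign and their call or lack of one, or, for levels, stayed within 1 SD. Another 28 gained a call, 83 lost one and 2 reversed in sign. A value that kept its sign and call status may still have changed in size. Rorb in excitatory neuron-like nuclei with no Cgas, for example, went from 1.51 to as low as 0.08. Depth kept Ciart, Dbp and Nr1d1 in microglia-like nuclei out of the tests over 23 mice.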

Other observations

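Genes outside the clock lists came closer to Dbp and Arntl over the 27 libraries than most clock genes did. Genes with a mean of at least 10 CPM in the class were ordered by Pearson r of log2(CPM + 1) with each of the 2, as a description without a test, since all points share the library's depth and makeup. In excitatory neuron-like nuclei (7930 genes) the 10 closest to Dbp were Cdk16, Cluh, Ppp5c, Dffb, Ppp2r5b, Zmiz2, Lemd2, Neu1, Rell2 and Ltk, with r from 0.88 to 0.91. The 10 closest to Arntl were Fam49a, Iqsec1, Nav2, Msi2, Wwox, Prkcz, Atxn1, Evl, Syn1 and Nr3c1, the glucocorticoid receptor, with r from 0.76 to 0.83. Of the other clock genes, Bhlhe40 was closest to Dbp there (r = 0.74) and Rora was closest to Arntl (r = 0.66).

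In astrocyte-like nuclei (8841 genes) the 10 closest to Dbp were Srsf5, Serhl, Rsrp1, Mrps24, Agrn, Ankrd16, Rxrb, Eif4a2, Srsf1 and Gm26532, with r from 0.76 to 0.84, and Srsf5 and Srsf1 encode splicing factors. The 10 closest to Arntl were Srgap3, Atp2b2, Nos1ap, Tmem44, Ctnnd2, Irak2, Crtc3, Setbp1, Ostm1 and Triobp, with r from 0.82 to 0.86. Bhlhe40, the paralog of Bhlhe41, had r = 0.67 with Dbp and -0.47 with Arntl in these nuclei. Npas2, which can take the place of Clock beside ARNTL, had r = -0.58 with Dbp and 0.49 with Arntl, and Rora had -0.47 and 0.55.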
